A study of Mus musculus with 12 samples.

Results

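RNA-seq of mouse liver was used to compare MED13-LKO mice with control mice over all diets. The comparison took all 12 libraries of the series, 6 labelled MED13-LKO and 6 labelled control, with diet as a covariate. Every mouse was 12 weeks old and was labelled as C57BL6J, and every mouse carried floxed *Med13* alleles. Control mice were *Med13* fl/fl. In MED13-LKO mice the same alleles were combined with Cre recombinase driven by the albumin promoter, which acts in hepatocytes. Each genotype was taken in 3 states with 2 mice in each. Mice were fasted overnight for 16 h, or were refed for 4 h after an overnight fast. Refed mice had chow and drinking water that held 30% sucrose or 30% fructose. The labels do not state sex, batch or litter. The paper of the study names male mice of both genotypes for its metabolic tests, and gives no sex for the mice sequenced.

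MED13 is the subunit that joins the kinase module of Mediator to the core complex. The core bridges transcription factors and RNA polymerase II, and the module (CDK8 or CDK19, cyclin C, MED12 or MED12L, and MED13 or MED13L) can block that contact and can phosphorylate other factors. The liver is a strongly sex-biased organ. Growth hormone, released in pulses in males and nearly continuously in females, acts through its receptor and the transcription factor STAT5B on genes of the major urinary proteins, cytochromes P450 and sulfotransferases. The liver also makes most plasma proteins, bile acids and much of the body's fat and glucose.

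The values are normalized counts, meaning estimated read counts per gene that were scaled between libraries. They summed to between 21062211 and 24152885 in control libraries and to between 17309215 and 18738563 in the libraries labelled MED13-LKO. The 100 highest genes held 49.3% to 53.5% of the sum in controls and 44.7% to 46.4% in the libraries labelled MED13-LKO. Differences were taken as means of log2(normalized count + 1), MED13-LKO minus control with diet in the fit, and "called" means an adjusted p under 0.05 from limma with Benjamini-Hochberg adjustment over 12366 genes. This scale understates the change of genes with low values. In all, 3008 genes were called (24.3% of those tested), 1426 higher (11.5%) and 1582 lower (12.8%). For 1095 genes (8.85%) no library of one genotype overlapped with any of the other, 485 higher (3.92%) and 610 lower (4.93%), and 1082 genes met both conditions (8.75%). Shared sequence is the percent of a gene's 31-base stretches that another gene also holds. Of genes with under 10% of it 23.3% were called, and of those with 10% or more 27.8%. By a fold of over 2, 267 called genes were higher (2.16%) and 160 lower (1.29%). The median difference of all genes was 0.01 as deposited, but rescaling every library to the same total moved it up by 0.315 on the log2 scale, to 0.32. The share of calls that were higher was 47.4% as deposited, 53.5% with equal 75th percentiles and 94.9% with equal totals. For this reason lists of genes are given with their calls under equal totals as well, which are to be read against the shares of all genes under that scaling, 57.2% higher and 3.05% lower. The filter let through 322 genes whose mean was under 10 in one genotype, so that they passed only through the other, and of these 75 were called higher and 27 lower. Ranges give the lowest and highest of the 6 libraries of a genotype. The lists were read against the background shares above, and were not tested as sets. Members named from a list were mostly chosen among those called and without overlap. For these, standing apart and a common direction in all diets follow from that choice.

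The targeted gene came first. *Med13*, on chromosome 11 of GRCm38 (86267033 to 86357602), had 578–796 with a median of 673 normalized counts in controls. Libraries labelled MED13-LKO held 646–1055 with a median of 763. The groups overlapped and the log2 difference was 0.22 (SE 0.11, adjusted p = 0.171 from limma), so no fall of its RNA was seen. A value per gene does not show whether single exons were lost, and "higher" and "lower" always refer to libraries labelled MED13-LKO. Of the 7 genes of the kinase module, 1 was called higher and none lower (14.3%, against 24.3% of all genes), or 5 and 0 with equal totals. That gene was *Med12l*, the alternative to *Med12*, at 2.93–24.9 with a median of 7.78 in controls and 32.8–94.1 with a median of 48.3 in the libraries labelled MED13-LKO. All 6 of the latter lay above every control, with a log2 difference of 2.48, SE 0.52, adjusted p = 0.00472 from limma, although 16.7% of its sequence is shared with other genes. The kinase genes *Cdk8* and *Cdk19* and the cyclin gene *Ccnc* had log2 differences of 0.03, -0.17 and -0.22, and the paralogue *Med13l* one of 0.05, none of which was called. Among 38 genes of core Mediator and RNA polymerase II, 2 were called higher and 2 lower (23 and 0 with equal totals). That is 10.5% of the list, below the 24.3% of all genes. With equal totals 60.5% were called higher, near the 57.2% of all genes, so the list as a whole does not stand out as changed. *Med30*, a head subunit of Mediator, rose from 51.7–90.1 with a median of 64.4 to 98.6–122 with a median of 113 (log2 difference 0.74, SE 0.11, adjusted p = 0.000545 from limma). *Polr2l*, a small subunit shared by the RNA polymerases, fell, with 591–714 with a median of 654 in controls and 432–533 with a median of 503 in the libraries labelled MED13-LKO (log2 difference -0.42, SE 0.07, adjusted p = 0.00129 from limma), and was not called with equal totals.

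Genes known to be higher in male than in female liver fell widely. Of 25 listed genes 24 were tested, 16 were called lower and none higher (15 and 1 with equal totals), and in 13 the genotypes did not overlap, with a median log2 difference of -1.54 against 0.01 for all genes. *Mup7*, a major urinary protein carried in male scent marks, had normalized counts 111470–482990 with a median of 254790 in controls and 649–4685 with a median of 1421 in the libraries labelled MED13-LKO (log2 difference -7.27, SE 0.43, adjusted p = 4.1e-07 from limma). Every control library was above every library labelled MED13-LKO. *Selenbp2*, a selenium-binding protein, was 1543–13872 with a median of 2668 in controls against 50.8–70.6 with a median of 65.4 (log2 difference -5.67, SE 0.41, adjusted p = 2.14e-06 from limma). *Hsd3b5*, a male-specific steroid dehydrogenase of liver, was 819.6–4518 with a median of 1263 against 12.8–101 with a median of 43.5 (log2 difference -5.24, SE 0.46, adjusted p = 1.06e-05 from limma), and *Mup1* was 8115–24967 with a median of 12558 against 267–601 with a median of 484 (log2 difference -4.94, SE 0.28, adjusted p = 2.5e-07 from limma). All 4 were chosen among members without overlap, which fixes their direction in each of the 3 diets. Their log2 differences per diet lay between -7.66 and -4.37. The 4 share 34.1% to 90.02% of their sequence with other genes, so the division of reads among near-identical copies is uncertain. The major urinary protein family as a whole had 16 of 18 tested members called lower and none higher (16 and 2 with equal totals), and 15 did not overlap. Summed over the 21 members in the table, where division among copies matters less, the family held 661485 to 1565249 normalized counts in controls and 102217 to 197800 in the libraries labelled MED13-LKO. The sums did not overlap.

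Genes known to be higher in female liver moved the other way. Of 32 listed genes 28 were in the table and 21 were tested, 12 were called higher and none lower (15 and 0 with equal totals), and 10 did not overlap, with a median log2 difference of 0.97. Those in the table but not tested were *Cyp2b13*, *Cyp3a41a*, *Cyp3a44*, *Cyp3a16*, *Sult2a2*, *Sult3a1* and *Hao2*. Each had a mean under 10 over all libraries, so the tested members leave out listed genes that were low in both genotypes. The list's summed normalized counts ran from 3397 to 6799 in controls and from 18741 to 27698 in the libraries labelled MED13-LKO. *Cyp2a4*, a steroid 15-alpha-hydroxylase of female liver, was at 39.6 and 26.5 in the controls after fasting, 21.04 and 13.4 after sucrose and 12.1 and 11.2 after fructose. Its values labelled MED13-LKO were 2256 and 4393 after fasting, 5958 and 3327 after sucrose, and 6576 and 4895 after fructose. The lowest of these stood far above the highest control (log2 difference 7.78, SE 0.33, adjusted p = 3.2e-08 from limma). *Cyp2c40*, an enzyme of arachidonic acid, was 7.92–393 with a median of 29.6 in controls against 1234–3923 with a median of 1996 (log2 difference 5.42, SE 0.80, adjusted p = 0.000496 from limma). *Cyp2a4* and *Cyp2c40* share 58.9% and 72.6% of their sequence with other genes, so the division of reads among near-identical copies is uncertain. The organic anion carrier gene *Slc22a26* was 14–35.6 with a median of 22.1 against 267–821 with a median of 300.3 (log2 difference 3.93, SE 0.26, adjusted p = 1.14e-06 from limma). *A1bg*, a secreted protein of the immunoglobulin family, was 0–2.2 with a median of 0 against 7.43–43.1 with a median of 21.6 (log2 difference 3.81, SE 0.47, adjusted p = 0.000135 from limma), a difference that depends on the pseudocount because some controls are at 0. *A1bg* passed the filter only through the libraries where it is high, and it is no support for the list; without it 11 of 20 members were called higher. The plot of sex-biased genes shows only members that were called and did not overlap, so their separation there is set by that choice, and the 8 male-biased and 9 female-biased genes that were not called are not in it. All values come from lists chosen with earlier results of these data known. Restricted to genes with under 10% shared sequence the median of the female-biased list was 0.35. Of its 11 such members 4 were called higher and none lower, against 1151 higher and 1047 lower of all 9433 such genes.

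**Figure D1:**
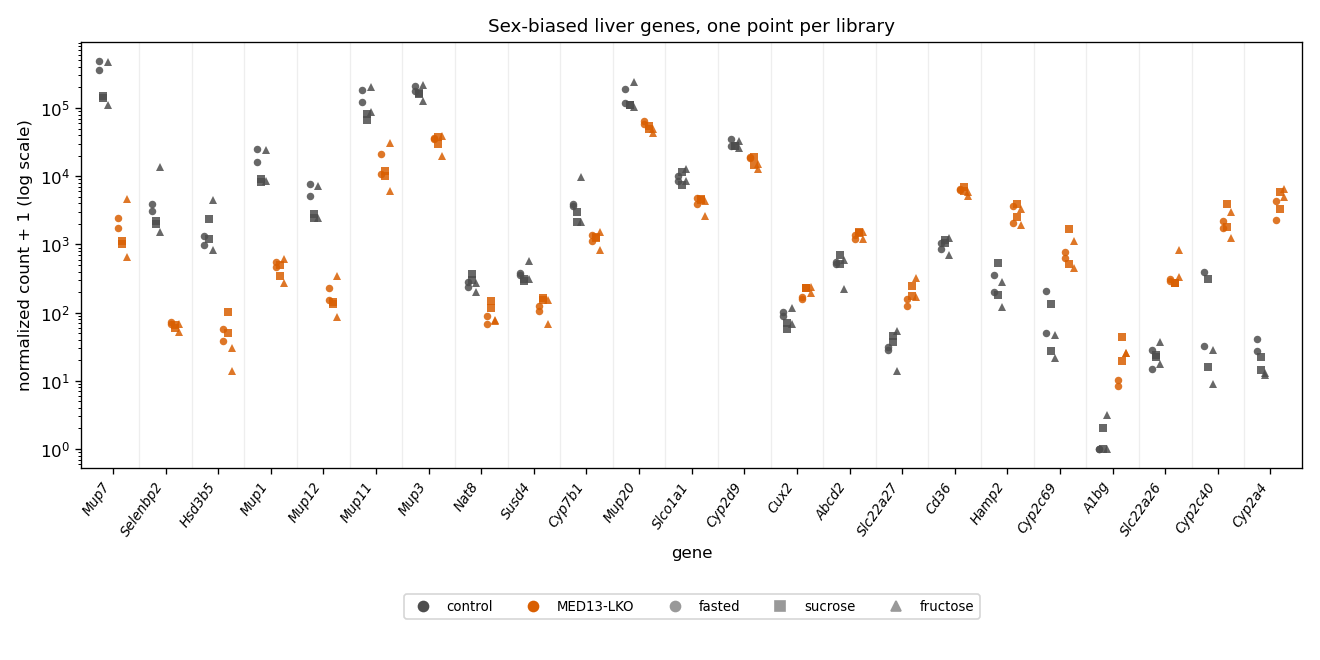
Normalized count plus 1 on a log axis for the 13 male-biased genes (left) and 10 female-biased genes (right) that were called and did not overlap between genotypes. Each point is 1 library, coloured by genotype and shaped by diet. Mup7 is at least 111470 in every control and at most 4685 in every library labelled MED13-LKO, and Cyp2a4 is at most 39.6 and at least 2256.

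*Cyp2a4* and *Cyp2a5* both lie on chromosome 7 and differ at 23 of 1482 aligned coding bases (98.4% identity). The stretch from coding base 550 to 669 is shown in each, from GENCODE M21 transcripts on GRCm38 (chr7:26307169-26315088 and chr7:26835305-26843548, plus strand), with the 6 bases that differ in capitals.
*Cyp2a4*: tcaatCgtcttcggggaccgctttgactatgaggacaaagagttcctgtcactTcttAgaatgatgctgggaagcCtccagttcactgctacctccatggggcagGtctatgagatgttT
*Cyp2a5*: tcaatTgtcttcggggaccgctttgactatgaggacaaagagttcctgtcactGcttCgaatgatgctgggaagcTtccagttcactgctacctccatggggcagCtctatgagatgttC

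Because STAT5 proteins bind a palindrome, promoter sequences were searched over their full length for TTCNNNGAA on either strand. The counts refer to the full length, and only the 250 bases before the start site are shown. Promoters from RefSeq (GRCm38.p6) could be matched for 15 of 21 tested female-biased genes and 16 of 24 tested male-biased genes. The letters were found in 4 of 11 matched female-biased genes called higher (36.4%) and in 0 of 11 matched male-biased genes called lower. Among members not called they were in 0 of 4 female-biased and 2 of 5 male-biased genes (40.0%). Over all 32851 promoters the share was 8.3%, and it was 9.55% over the 27025 genes they belong to. A match in a promoter sequence is a description of sequence and not a site. *Slc22a26* and *Hamp2*, a hepcidin gene, show the match in capitals, 141 and 94 bases before the start. *Hamp2* was chosen after its match was seen. The same 250 bases of *Cyp2a4*, *Hsd3b5* and *Mup7*, among the most changed genes of the lists, held no match and are not shown.
Slc22a26 (chr19:7802668-7802917, minus strand): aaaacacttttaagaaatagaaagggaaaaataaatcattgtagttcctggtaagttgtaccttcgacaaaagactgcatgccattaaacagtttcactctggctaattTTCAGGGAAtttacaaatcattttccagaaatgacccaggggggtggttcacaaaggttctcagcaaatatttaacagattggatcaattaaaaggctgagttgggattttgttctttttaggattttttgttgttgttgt
Hamp2 (chr7:30924182-30924431, minus strand): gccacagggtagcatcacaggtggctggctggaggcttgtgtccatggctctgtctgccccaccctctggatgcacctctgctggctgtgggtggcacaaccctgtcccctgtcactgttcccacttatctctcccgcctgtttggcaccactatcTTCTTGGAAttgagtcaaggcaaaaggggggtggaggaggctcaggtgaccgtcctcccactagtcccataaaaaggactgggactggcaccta

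Growth hormone axis genes held 12 members, of which 1 was called higher and 2 lower (4 and 2 with equal totals). That is 25.0% of the list, near the 24.3% of all genes, so the list as a whole does not stand out. *Ghr*, the growth hormone receptor, was 11046–12670 with a median of 11647 in controls against 7326–8686 with a median of 8016 (log2 difference -0.54, SE 0.05, adjusted p = 8.31e-06 from limma). *Igf1*, the circulating growth factor made on its signal, was 10144–12692 with a median of 11313 against 6463–8720 with a median of 7099 (log2 difference -0.65, SE 0.07, adjusted p = 4.38e-05 from limma). *Cux2*, a repressor known from female liver, was 56.9–116 with a median of 78.5 against 159–239 with a median of 212 (log2 difference 1.31, SE 0.18, adjusted p = 0.000325 from limma). These 3 genes are all the members called, and in each all 6 libraries of one genotype stood apart from the other 6.

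Drug and steroid metabolism shifted in both directions. In cytochrome P450 families 1 to 3, 8 of 37 tested members were called higher and 17 lower (13 and 11 with equal totals), and 5 and 11 did not overlap, with a median that turned from -0.20 to 0.12 when totals were made equal. Besides *Cyp2a4* and *Cyp2c40* the largest were *Cyp2c69*, 20.9–207 with a median of 47.7 against 446–1665 with a median of 702 (log2 difference 3.72, SE 0.51, adjusted p = 0.000315 from limma), and *Cyp2c55*, 51.7–118 with a median of 78 against 192–357 with a median of 305 (log2 difference 1.88, SE 0.19, adjusted p = 3.46e-05 from limma). *Cyp2c69* shares 64.9% of its sequence with other genes. Among 45 phase II genes, which attach sulfate, glucuronide, methyl or glutathione groups, 8 were called higher and 17 lower (23 and 6 with equal totals), and the median turned from -0.11 to 0.21. *Sult2a8*, a sulfotransferase of bile acids, was lower in each diet, at 17365–25628 with a median of 21593 in controls against 2261–5327 with a median of 4164 (log2 difference -2.49, SE 0.15, adjusted p = 5.65e-07 from limma). *Tpmt*, the methyltransferase of thiopurine drugs, rose from 807–1185 with a median of 1021 to 2089–2834 with a median of 2354 (log2 difference 1.26, SE 0.09, adjusted p = 1.79e-06 from limma), and *Sult1c2* from 48.4–98.1 with a median of 73.4 to 99.2–136 with a median of 115 (log2 difference 0.77, SE 0.16, adjusted p = 0.00417 from limma). *Ugt1a9* shares 67.8% of its sequence with other genes and was 2298–5480 with a median of 2961 against 1079–2033 with a median of 1492 (log2 difference -1.16, SE 0.14, adjusted p = 0.000119 from limma). The named phase II genes were chosen among members without overlap.

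Genes of lipid synthesis were called lower as deposited, less so with equal totals, and varied widely with diet. Of 15 genes of de novo lipogenesis 9 were called lower and none higher (4 and 2 with equal totals), and in no gene were the genotypes free of overlap, while fed and fasted values spread over a wide range. *Fasn*, fatty acid synthase, was not called between genotypes (log2 difference -0.76, SE 0.26, adjusted p = 0.0541 from limma), at 1085–35838 with a median of 9046 in controls and 699–12721 with a median of 6375 labelled MED13-LKO. It was called in the fit of the 6 groups (adjusted p = 0.0264 from limma). By diet the differences of *Fasn* were -0.47 fasted, -1.60 with sucrose and -0.20 with fructose, of which only the sucrose one was called. The lipogenic transcription factor *Srebf1* was 3349–19239 with a median of 10515 against 1978–10315 with a median of 8331 and was called (log2 difference -0.60, SE 0.15, adjusted p = 0.0137 from limma), although not with equal totals. *Mlxipl*, which encodes the sugar-responsive factor ChREBP, was 3301–5968 with a median of 4982 against 3464–4788 with a median of 3757 (log2 difference -0.30, SE 0.09, adjusted p = 0.033 from limma); its difference became 0.02 with equal totals and its call was lost under 10 other settings, 8 of which left out 1 library. The largest changes called in the list were those of the desaturase *Scd1* (-1.68) and the elongase *Elovl6* (-1.12), chosen after their values were seen. In the cholesterol pathway 14 of 27 genes were called lower and 1 higher (3 and 3 with equal totals). *Sc5d*, a late enzyme of cholesterol synthesis, was 8694–16645 with a median of 9670 against 4455–8477 with a median of 7055 (log2 difference -0.76, SE 0.12, adjusted p = 0.000667 from limma), and *Ebp* was 3748–4002 with a median of 3902 against 2987–3642 with a median of 3506 (log2 difference -0.19, SE 0.05, adjusted p = 0.0155 from limma). With equal totals the difference of *Ebp* was 0.13.

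Genes of glycolysis and fructose metabolism were mostly called lower as deposited, those of gluconeogenesis and glycogen less often, and fewer were with equal totals. Of 14 glycolytic genes, 9 were called lower and 2 higher (1 and 3 with equal totals), and of 8 genes of fructose metabolism 5 were called lower and none higher (3 and 1). *Slc2a2*, the glucose transporter of hepatocytes, was 9222–13950 with a median of 10209 in controls against 2868–7143 with a median of 4849 (log2 difference -1.19, SE 0.12, adjusted p = 3.75e-05 from limma). *Gapdh* was 24555–34051 with a median of 27451 against 16155–23158 with a median of 20909 (log2 difference -0.46, SE 0.07, adjusted p = 0.000486 from limma), and *Tpi1*, triose phosphate isomerase, 6693–7422 with a median of 7263 against 5383–6492 with a median of 6243 (log2 difference -0.24, SE 0.05, adjusted p = 0.00693 from limma). The calls of *Gapdh* and *Tpi1* were lost with equal totals, where *Tpi1* had a difference of 0.07. *Aldh1a1*, an aldehyde dehydrogenase, was 29063–45452 with a median of 39217 against 18533–26431 with a median of 21953 (log2 difference -0.78, SE 0.11, adjusted p = 0.000322 from limma) and *Sord*, sorbitol dehydrogenase, 38523–41514 with a median of 40010 against 26635–30931 with a median of 28574 (log2 difference -0.48, SE 0.05, adjusted p = 3.05e-05 from limma). Gluconeogenesis had 4 of 12 genes called lower and 1 higher (2 and 3 with equal totals), with a median that turned from -0.28 to 0.04. *Fbp1*, fructose-1,6-bisphosphatase, was 15857–20479 with a median of 16671 in controls against 7943–11906 with a median of 10405 (log2 difference -0.77, SE 0.06, adjusted p = 7.88e-06 from limma), and the carrier of glucose 6-phosphate into the reticulum, *Slc37a4*, was 6409–7838 with a median of 7150 against 4138–5506 with a median of 4960 (log2 difference -0.54, SE 0.08, adjusted p = 0.000465 from limma). Neither overlapped. *G6pc* (log2 difference 0.51, SE 0.22, adjusted p = 0.122 from limma), *Pck1* (log2 difference -0.23, SE 0.41, adjusted p = 0.723 from limma) and *Foxo1* (log2 difference -0.33, SE 0.12, adjusted p = 0.0725 from limma) were not called. In the fit of the 6 groups *G6pc* alone of these was called (adjusted p = 0.0477 from limma). By diet the differences of *G6pc* were -0.28 fasted, 0.98 with sucrose and 0.81 with fructose, none of them called. Glycogen metabolism had 5 of 17 genes called lower and 2 higher (3 and 9 with equal totals). *Ugp2*, which makes UDP-glucose, was 11466–16042 with a median of 14152 against 6709–9441 with a median of 7399 (log2 difference -0.84, SE 0.07, adjusted p = 6.92e-06 from limma), and *Pgm1*, which interconverts glucose phosphates, was 2170–2580 with a median of 2292 against 170.2–2083 with a median of 1169 (log2 difference -1.32, SE 0.40, adjusted p = 0.0302 from limma). *Pgm1* in fructose mouse 1 labelled MED13-LKO stood at 170.2, with the other 5 of that genotype from 1000 to 2083. The call of *Pgm1* was lost without any one of 5 libraries, which were MED13-LKO fasted mouse 2, MED13-LKO sucrose mouse 2, control fasted mouse 2 and both control fructose mice.

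Genes of fatty acid oxidation were called higher in part. Of 39 genes of this pathway and targets of PPAR alpha, the fasting-activated receptor that drives it, 20 were called higher and none lower (36 and 0 with equal totals), 8 did not overlap, and the median log2 difference was 0.28. *Cd36*, a fatty acid translocase, rose from 707–1236 with a median of 1044 in controls to 5160–6843 with a median of 6196 (log2 difference 2.62, SE 0.11, adjusted p = 3.56e-08 from limma). *Cyp4a31*, an omega-hydroxylase of fatty acids, rose from 79.2–221 with a median of 153 to 571–1459 with a median of 861 (log2 difference 2.60, SE 0.25, adjusted p = 2.41e-05 from limma). *Acot1* and *Acot2*, thioesterases of acyl-CoA in cytosol and mitochondrion, rose from 155–405 with a median of 318 to 804–2477 with a median of 1095 (log2 difference 2.07, SE 0.24, adjusted p = 8.15e-05 from limma) and from 34.1–64.1 with a median of 53.1 to 154–313 with a median of 179 (log2 difference 1.91, SE 0.18, adjusted p = 2.1e-05 from limma). These 4 genes were chosen among the members without overlap. *Cyp4a31*, *Acot1* and *Acot2* share 22.8% to 37.8% of their sequence with other genes, and *Cd36* shares none.

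**Figure D2:**
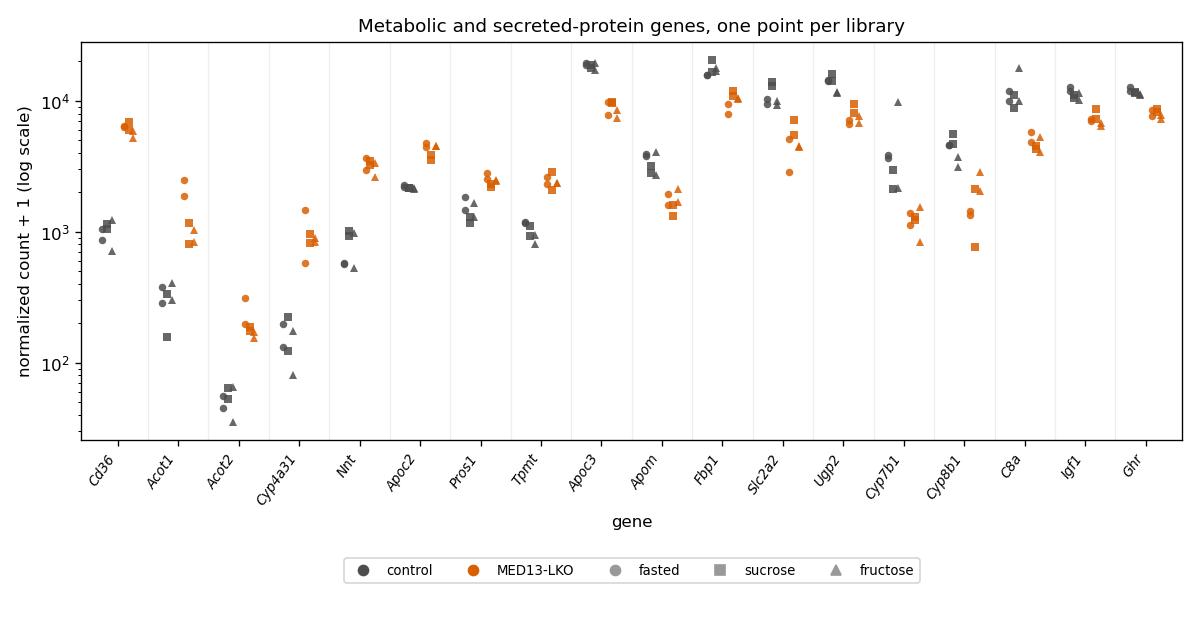
Normalized count plus 1 on a log axis for 18 metabolic and secreted-protein genes, 1 point per library, coloured by genotype and shaped by diet. Cd36 rose from at most 1236 in controls to at least 5160 in the libraries labelled MED13-LKO, and Apoc3 fell from at least 17116 to at most 9862.

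Genes of plasma proteins were called lower in several lists. With equal totals the apolipoprotein, coagulation and hepatokine lists had 25.0%, 19.5% and 26.1% of members called lower, against 3.05% of all genes. Called higher under that scaling were 33.3%, 34.1% and 30.4%, against 57.2%. Of 24 apolipoprotein and VLDL assembly genes 11 were called lower and 1 higher (6 and 8 with equal totals), and 7 and 1 did not overlap. *Apoc3*, an inhibitor of lipoprotein lipase, was 17116–19545 with a median of 18793 in controls against 7351–9862 with a median of 9072 (log2 difference -1.08, SE 0.07, adjusted p = 1.36e-06 from limma). *Apoc2*, the activator of the same enzyme, was the one called higher, 2134–2273 with a median of 2158 against 3533–4789 with a median of 4455 (log2 difference 0.96, SE 0.05, adjusted p = 2.56e-07 from limma). *Apoc4* was 10340–12433 with a median of 11188 against 5432–6431 with a median of 5892 (log2 difference -0.93, SE 0.06, adjusted p = 7.48e-07 from limma) and *Apom*, a carrier of sphingosine 1-phosphate, 2732–4048 with a median of 3476 against 1312–2101 with a median of 1638 (log2 difference -0.998, SE 0.11, adjusted p = 4.58e-05 from limma). *Apoc2* and *Apoc4* adjoin one another and share 78.8% and 13.2% of their sequence with other genes. Which genes share it was not looked at, so the division of reads is uncertain. Coagulation and complement had 29 of 41 genes called lower and 2 higher (8 and 14 with equal totals), and 17 and 1 did not overlap. *C8a*, a pore-forming complement subunit, was 8815–17964 with a median of 10554 against 4071–5732 with a median of 4664 (log2 difference -1.25, SE 0.14, adjusted p = 7.37e-05 from limma). *Mbl1*, a mannose-binding lectin, was 626–779 with a median of 736 against 363–527 with a median of 461 (log2 difference -0.64, SE 0.08, adjusted p = 0.000135 from limma) and *C4bp*, an inhibitor of complement, 11448–13626 with a median of 12533 against 7574–8733 with a median of 8160 (log2 difference -0.63, SE 0.05, adjusted p = 4.23e-06 from limma). *Pros1*, protein S of anticoagulation, was instead higher, 1158–1848 with a median of 1387 against 2193–2805 with a median of 2459 (log2 difference 0.78, SE 0.08, adjusted p = 2.17e-05 from limma). Among 23 hepatokines, hormones secreted by the liver, 13 were called lower and 2 higher (6 and 7 with equal totals), and 8 did not overlap. *Enho*, which encodes adropin, was at 121–343 with a median of 239 in controls and 6.5–26.9 with a median of 12 in the libraries labelled MED13-LKO (log2 difference -4.03, SE 0.26, adjusted p = 1.02e-06 from limma). *Serpina12*, vaspin, was 224–862 with a median of 327 against 18.6–35.4 with a median of 26.9 (log2 difference -3.68, SE 0.27, adjusted p = 2.67e-06 from limma). *Ahsg*, fetuin-A, was 115230–141440 with a median of 122930 against 75809–84147 with a median of 81905 (log2 difference -0.65, SE 0.06, adjusted p = 1.02e-05 from limma). All 3 were chosen among the members without overlap.

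Genes of protein folding, bile acids and amino acids were mostly called lower as deposited. With equal totals 8.57%, 34.5% and 22.0% of them were called lower, against 3.05% of all genes. Called higher under that scaling were 8.57%, 34.5% and 34.0%, against 57.2%. Of 35 genes of ER chaperones and the unfolded protein response, 19 were called lower and 1 higher (3 and 3 with equal totals). *P4hb*, protein disulfide isomerase, was 24471–28016 with a median of 26710 against 18281–23668 with a median of 19135 (log2 difference -0.43, SE 0.06, adjusted p = 0.000369 from limma) and *Ppib*, a prolyl isomerase, 3746–4532 with a median of 4202 against 2548–3726 with a median of 2754 (log2 difference -0.54, SE 0.08, adjusted p = 0.000608 from limma), and *P4hb* was not called with equal totals. In bile acid synthesis and transport 16 of 29 genes were called lower and 2 higher (10 and 10 with equal totals), and 9 and 1 did not overlap. *Slc51b*, 1 of the 2 called higher, passed the filter only through the libraries where it is high. *Cyp7b1*, which starts the alternative pathway of bile acid synthesis, was 2119–9860 with a median of 3308 in controls against 834–1534 with a median of 1268 (log2 difference -1.53, SE 0.31, adjusted p = 0.00424 from limma). *Cyp8b1*, the sterol 12-alpha-hydroxylase needed for cholic acid, was 3125–5560 with a median of 4584 against 767–2858 with a median of 1741 (log2 difference -1.41, SE 0.27, adjusted p = 0.00267 from limma), and the uptake carrier *Slco1a1* 7546–12880 with a median of 9356 against 2581–4742 with a median of 4418 (log2 difference -1.27, SE 0.17, adjusted p = 0.000224 from limma). The export pump *Abcc4* rose from 41.2–66.7 with a median of 53.2 to 68.4–189 with a median of 124 (log2 difference 1.20, SE 0.20, adjusted p = 0.00101 from limma). In the urea cycle and amino acid catabolism 30 of 50 genes were called lower and 3 higher (11 and 17 with equal totals). *Cth*, *Mat1a* and *Hgd*, enzymes of sulfur amino acids, methionine and tyrosine, had log2 differences of -0.71, -0.67 and -0.67. All 3 were chosen among members without overlap. *Oat*, ornithine aminotransferase, was 15200–27508 with a median of 16343 against 8902–13796 with a median of 10057 (log2 difference -0.79, SE 0.16, adjusted p = 0.00422 from limma).

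NAD metabolism had 3 of 18 genes called higher and 4 lower (12 and 1 with equal totals), and the 3 higher were those that did not overlap. *Nnt*, the mitochondrial enzyme that makes NADPH from NADH, was at 575 and 566 in the controls after fasting, 930 and 1004 after sucrose and 529 and 969 after fructose. Its values labelled MED13-LKO were 2952 and 3687 after fasting, 3462 and 3233 after sucrose, and 2617 and 3341 after fructose, all above every control (log2 difference 2.12, SE 0.15, adjusted p = 2.12e-06 from limma). C57BL/6J mice are known to carry a deletion allele of *Nnt*, both genotypes bear the same strain label, and the part of strain background in these differences was not tested. *Nmnat3* and *Qprt*, enzymes of NAD synthesis, rose from 22.6–55.7 with a median of 40 to 60.4–98 with a median of 80 (log2 difference 1.06, SE 0.19, adjusted p = 0.00178 from limma) and from 1767–2218 with a median of 1972 to 2365–3235 with a median of 2827 (log2 difference 0.53, SE 0.08, adjusted p = 0.000608 from limma).

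Genes of antigen presentation and the interferon response rose in 17 of 41 tested members and fell in 4 (30 and 0 with equal totals), with 9 that did not overlap, all higher. *Usp18*, an interferon-induced protease, rose from 82.6–144 with a median of 129.9 to 210.3–297 with a median of 249 (log2 difference 1.02, SE 0.11, adjusted p = 5.15e-05 from limma). *Psmb8* of the immunoproteasome rose from 161–224 with a median of 190.0 to 269–399 with a median of 351 (log2 difference 0.85, SE 0.12, adjusted p = 0.000297 from limma), the interferon factor *Irf7* from 256–405 with a median of 363 to 530.5–688 with a median of 554 (log2 difference 0.74, SE 0.10, adjusted p = 0.000226 from limma), and the peptide transporter *Tap2* from 207–305 with a median of 216 to 309–429 with a median of 382 (log2 difference 0.68, SE 0.09, adjusted p = 0.000289 from limma). Markers of Kupffer and sinusoidal endothelial cells were also called higher, and their part in these differences was not tested. Kupffer cell markers were called higher in 5 of 14 and lower in none (14 and 0 with equal totals), and their summed level ran from 6058 to 8426 in controls and from 7636 to 9971 in the libraries labelled MED13-LKO. *Cd5l* and *Marco*, defining genes of these macrophages, rose from 947–1341 with a median of 1292 to 1609–2330 with a median of 1885 (log2 difference 0.63, SE 0.08, adjusted p = 0.000159 from limma) and from 63–166 with a median of 106 to 184–321 with a median of 241 (log2 difference 1.22, SE 0.15, adjusted p = 0.000135 from limma). Sinusoidal endothelial markers were called higher in 8 of 15 (15 with equal totals), with sums from 8183 to 9627 and from 9496 to 12466. Of 18 stellate cell and matrix markers 4 were called lower (0 lower and 7 higher with equal totals), with sums from 10100 to 11522 and from 9476 to 10681, and *Timp1* was at 0 in some libraries. In that list *Tagln* had a log2 difference of -0.34 whose call was lost under 14 other settings. Cholangiocyte markers had 5 tested members, 1 called higher and 1 lower (2 and 0 with equal totals), with sums from 798 to 1117 and from 755 to 1171, and of 12 lymphocyte markers 2 were tested and 1 was called higher (1 with equal totals), with sums from 219 to 304 and from 275 to 407. Hepatocyte markers were called lower in 7 of 10 (3 lower and 3 higher with equal totals), with sums from 2830498 to 3543838 and from 2171393 to 2594649. *Alb* was 1780000–2411600 with a median of 2042500 in controls against 1376900–1683200 with a median of 1499000 (log2 difference -0.45, SE 0.10, adjusted p = 0.00757 from limma), *Ttr* 102370–119910 with a median of 115380 against 81171–88217 with a median of 82515 (log2 difference -0.44, SE 0.06, adjusted p = 0.000226 from limma) and *Serpina1a* 96923–121770 with a median of 115130 against 66247–74786 with a median of 72424 (log2 difference -0.64, SE 0.07, adjusted p = 6.25e-05 from limma). With equal totals *Alb* and *Ttr* were not called. In whole liver, fewer cells of a type and less RNA per cell cannot be told apart, and the part of cell composition in the lists above was not tested.

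**Figure D3:**
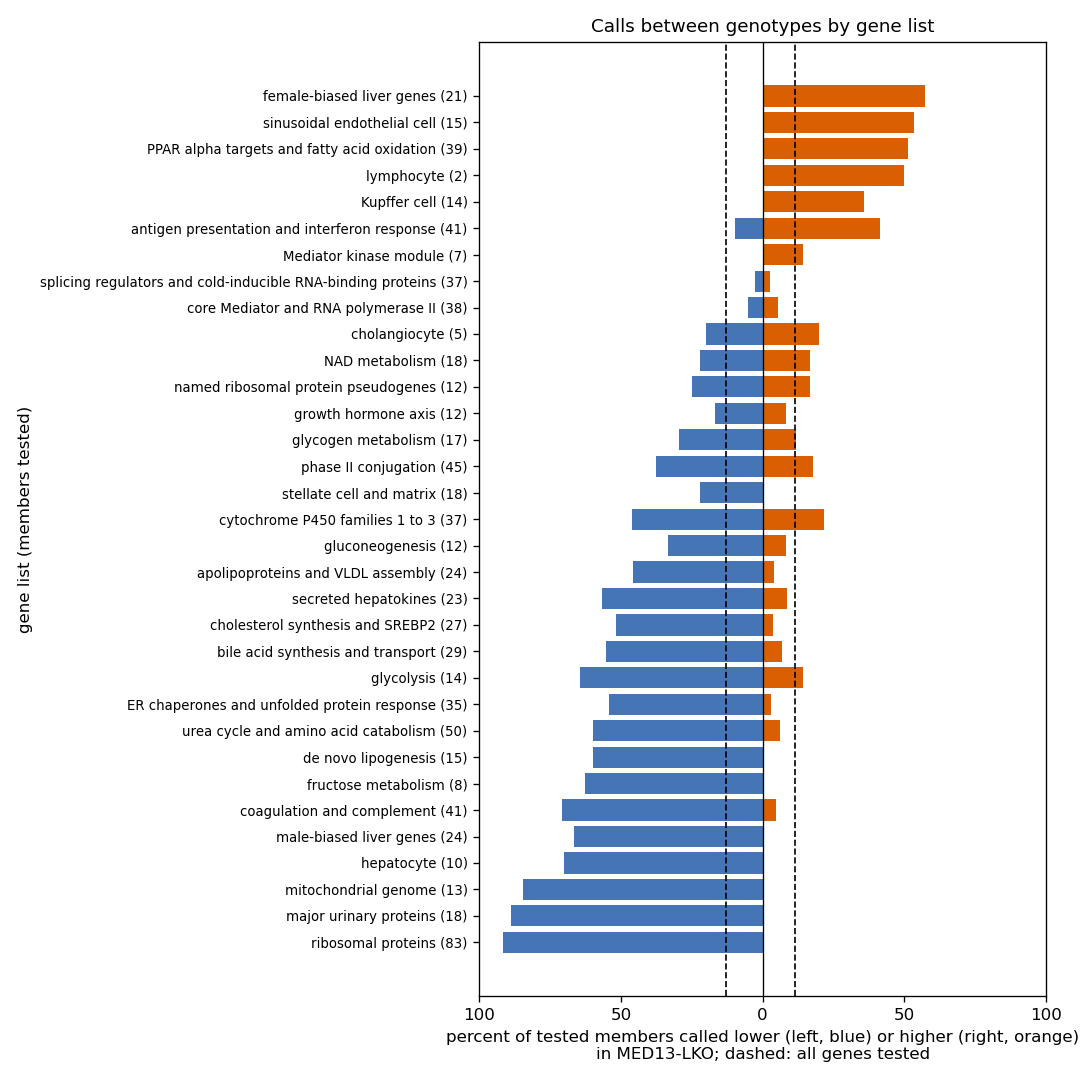
Percent of tested members of each list that were called lower (left, blue) or higher (right, orange) in the libraries labelled MED13-LKO, with the number tested in brackets and the shares over all genes (12.8% and 11.5%) as dashed lines. Ribosomal proteins (76 of 83 lower) and female-biased genes (12 of 21 higher) mark the ends.

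Ribosomal proteins were called lower in 76 of 83 tested genes and higher in none (6 and 1 with equal totals), with a median log2 difference of -0.34. Among them 42 did not overlap. A few changed by far more than the rest. *Rps26* was 2628–3265 with a median of 3160 in controls against 50.7–69.9 with a median of 58.6 (log2 difference -5.68, SE 0.10, adjusted p = 5.91e-12 from limma), *Rpl34* 2479–3489 with a median of 3037 against 238–297 with a median of 282 (log2 difference -3.42, SE 0.08, adjusted p = 6.15e-11 from limma), *Rps3a1* 7135–8710 with a median of 8317 against 756–916 with a median of 763 (log2 difference -3.35, SE 0.06, adjusted p = 8.35e-12 from limma) and *Rpl30* 2063–2875 with a median of 2569 against 742–906 with a median of 850.1 (log2 difference -1.57, SE 0.08, adjusted p = 1.19e-07 from limma). Copies of the same genes elsewhere in the genome went up in the same libraries, and these copies share 91.9% (*Rps26-ps1*), 92.9% (*Rps3a2*) and 100% (*Rpl34-ps1*) of their sequence with other genes. How reads were divided between gene and copy is therefore uncertain, and, as for *Nnt*, the part of strain background was not tested. *Rps26-ps1* and *Rpl34-ps1* passed the filter only through the libraries where they are high. *Rps26-ps1* on chromosome 8 was 0–7.19 with a median of 0.553 in controls against 1137–1322 with a median of 1265 (log2 difference 9.26, SE 0.48, adjusted p = 1.32e-07 from limma), *Rpl34-ps1* 2.21–5.58 with a median of 4.93 against 909–1277 with a median of 1148 (log2 difference 7.70, SE 0.17, adjusted p = 4.27e-11 from limma) and *Rps3a2* 2.07–21.7 with a median of 8.35 against 3000–3616 with a median of 3309 (log2 difference 8.51, SE 0.32, adjusted p = 9.95e-09 from limma). The summed counts of gene and copy ran from 2629 to 3270 in controls and from 1188 to 1392 in the libraries labelled MED13-LKO for *Rps26*, from 7139 to 8732 and from 3793 to 4532 for *Rps3a1*, and from 2485 to 3494 and from 1147 to 1552 for *Rpl34*. The sums thus also stood apart. Another processed pseudogene, *Gm12191*, was 0–4.42 with a median of 0 against 641–897 with a median of 776 (log2 difference 9.21, SE 0.35, adjusted p = 9.95e-09 from limma), with all of its sequence shared. *Gm12191* too passed the filter only through the libraries where it is high. Of 12 tested pseudogenes named for ribosomal proteins 2 were called higher and 3 lower (2 and 1 with equal totals); *Rpl28-ps1* was 1243–1433 with a median of 1334 against 927–1049 with a median of 961 (log2 difference -0.46, SE 0.05, adjusted p = 4.98e-05 from limma). The first 120 coding bases of *Rps26* and of its copy are shown because so few bases separate the gene from its copy. They come from GENCODE M21 on GRCm38 (chr10:128624534-128626747 and chr8:107439131-107439579, minus strand), and of 345 aligned coding bases 2 differ (99.4% identity), 1 of them in this stretch, given in capitals.
Rps26: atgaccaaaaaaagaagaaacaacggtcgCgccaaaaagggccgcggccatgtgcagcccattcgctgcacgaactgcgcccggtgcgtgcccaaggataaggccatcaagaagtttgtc
Rps26-ps1: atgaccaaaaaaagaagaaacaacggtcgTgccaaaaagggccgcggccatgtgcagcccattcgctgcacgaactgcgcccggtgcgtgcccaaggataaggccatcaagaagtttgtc

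**Figure D4:**
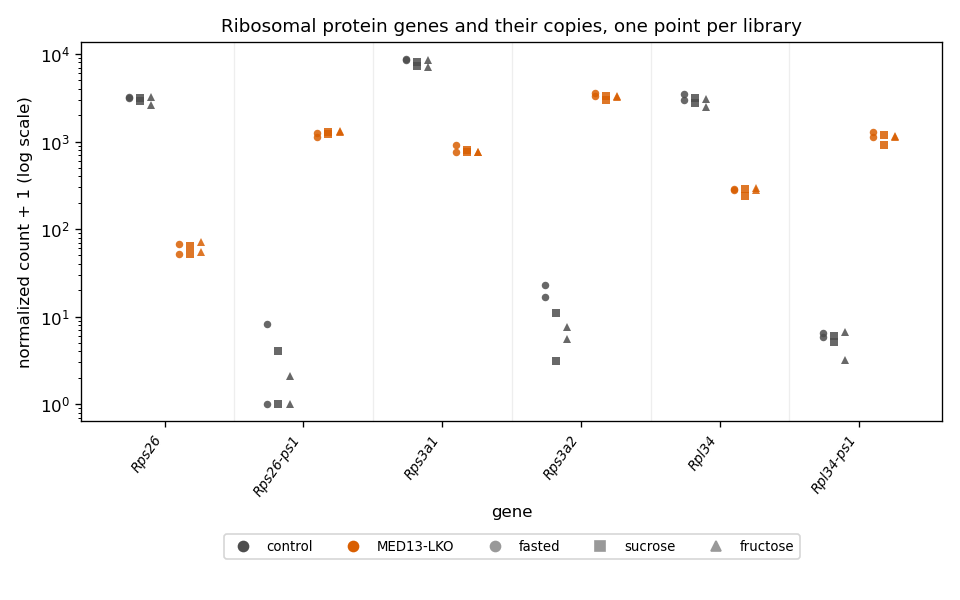
Normalized count plus 1 on a log axis for 3 ribosomal protein genes, each beside a copy of it, 1 point per library, coloured by genotype and shaped by diet. Rps26 is between 2629 and 3265 in controls and between 50.7 and 69.9 in the libraries labelled MED13-LKO, while Rps26-ps1 goes from at most 7.19 to at least 1137.

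Of 13 protein genes of the mitochondrial genome 11 were called lower and none higher (1 and 1 with equal totals), with 3 that did not overlap. *mt-Nd3* was 19796–26780 with a median of 24824 in controls against 8516–10489 with a median of 8791 (log2 difference -1.41, SE 0.08, adjusted p = 3.74e-07 from limma), with 98.1% of its sequence shared, and *mt-Nd2* was 153950–191560 with a median of 175300 against 128620–150420 with a median of 136180 (log2 difference -0.34, SE 0.06, adjusted p = 0.00217 from limma). *mt-Nd4* had a log2 difference of -0.33, and its call and that of *mt-Nd2* were not made with equal totals. Splicing regulators and cold-inducible RNA-binding proteins had the lowest share of calls of the lists examined (5.4%), with 1 of 37 called higher and 1 lower (30 and 0 with equal totals) and no gene free of overlap.

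Genes with little shared sequence were also ranked one by one. Of these, *Cox6b2*, *Igsf23*, *Ntrk2*, *Slc35f2*, *Lamb3*, *Tspyl5*, *Atp6v0e2*, *Adgrf1*, *Mycn* and *Cenpm* passed the filter only through the genotype in which they are high. *Cox6b2*, a testis form of a cytochrome oxidase subunit, was at 0.993–5.7 with a median of 2.04 in controls and 171–475 with a median of 315 in the libraries labelled MED13-LKO (log2 difference 6.36, SE 0.32, adjusted p = 9.8e-08 from limma). *Igsf23* was 0–8.99 with a median of 7.46 against 119–397 with a median of 284 (log2 difference 5.30, SE 0.52, adjusted p = 2.45e-05 from limma), and *Fam131c* 14.7–28.6 with a median of 20.9 against 186–239.7 with a median of 226 (log2 difference 3.36, SE 0.16, adjusted p = 7.59e-08 from limma). The neurotrophin receptor gene *Ntrk2* was 0–11.8 with a median of 4.55 against 15.6–219 with a median of 31 (log2 difference 3.44, SE 0.68, adjusted p = 0.00354 from limma). The other 6 with the largest rises were *Slc35f2*, *Lamb3*, *5330417C22Rik*, *Tchh*, *Tspyl5* and *Atp6v0e2*, with log2 differences from 3.22 to 3.98. Among those that fell, *Sucnr1*, the succinate receptor, was 449–1171 with a median of 568 against 62.1–182 with a median of 79.2 (log2 difference -2.73, SE 0.12, adjusted p = 3.34e-08 from limma). *Mme*, the peptidase neprilysin, was 367–540.3 with a median of 511 against 51.6–105 with a median of 85.3 (log2 difference -2.62, SE 0.13, adjusted p = 9.34e-08 from limma), and *Car3*, a carbonic anhydrase of male liver and muscle, 22538–42011 with a median of 29438 against 3203–13919 with a median of 7528 (log2 difference -2.06, SE 0.18, adjusted p = 8.31e-06 from limma). *Adgrf1*, an adhesion receptor, was 19.1–159 with a median of 50.4 against 1.07–7.89 with a median of 3.92 (log2 difference -3.48, SE 0.50, adjusted p = 0.000404 from limma). *Mycn* and *Cenpm*, a MYC family transcription factor and a centromere protein, had log2 differences of -2.167 and -1.996. These genes were chosen because the genotypes did not overlap, and that choice fixes the same sign in each diet. The plot of differences by diet thus shows only how their sizes varied.

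**Figure D5:**
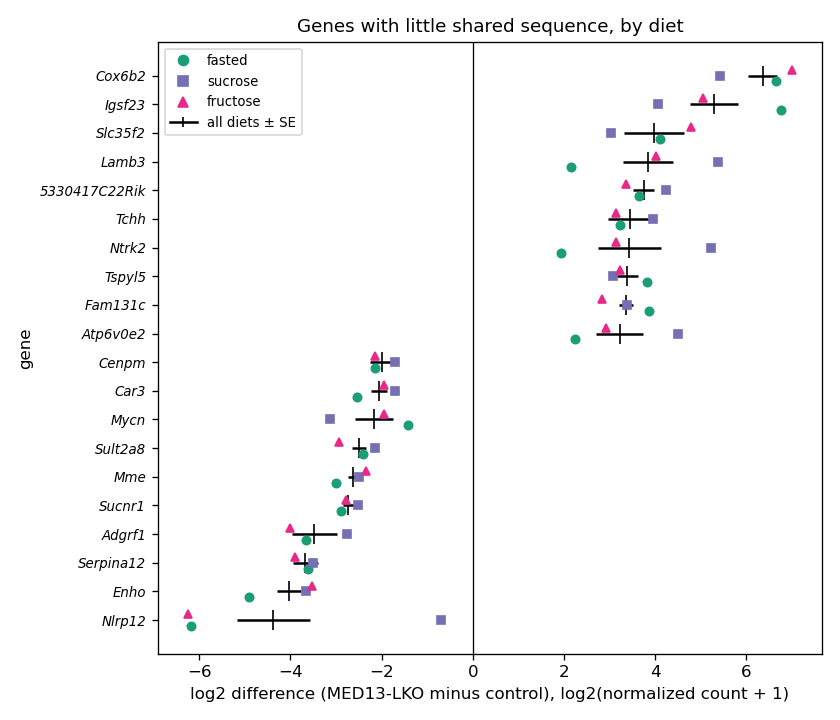
Log2 differences (MED13-LKO minus control, log2 of normalized count plus 1) within each diet (coloured points) and over all diets (black tick with SE bar) for the 10 largest rises and the 10 largest falls among protein-coding genes that were called, did not overlap and share under 10% of their sequence. Cox6b2 lies furthest right at 6.36 over all diets and Nlrp12 furthest left at -4.37, with its sucrose value at -0.69.

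The genotype difference was called as dependent on diet for 20 genes (0.162%), while 1126 (9.11%) had an unadjusted p under 0.05. The 20 calls became 0 with the replicate block, 4 with a mean of at least 100, and 2 to 55 when 1 library was left out. *Nlrp12*, an inflammasome-related regulator, had log2 differences of -6.18 fasted, -0.69 with sucrose and -6.25 with fructose. *Nnmt*, nicotinamide N-methyltransferase, had differences of -0.48, 1.03 and -0.05 in the same order. *Fam177a*, *Ighv1-50* and *Rprd2* had values of 0 in some libraries, with differences of up to 7.09 in 1 diet, and *Fam177a* and *Ighv1-50* share 98.5% and 69.2% of their sequence. Within single diets 1110 genes were called in fasted (8.98%), 746 in sucrose (6.03%) and 951 in fructose libraries (7.69%), and these counts share the spread estimated from all 12 libraries. Taken separately by diet, 2237 genes (18.1%) had no overlap of 2 libraries against 2 in all 3 diets.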

How the data were processed

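Liver RNA-seq libraries of 12 mice were used, 2 in each of 6 groups by genotype and diet, and groups were taken from the sample labels. The signal values are normalized counts that the authors deposited for 16346 genes. Per the labels, reads were trimmed with Trim Galore 0.6.5, transcript counts were estimated with kallisto 0.46.0 and DESeq2 1.24.0 was used, with mm10 as the build. Their values carry a factor per gene and library, so read counts were not recovered over all genes and no count model was run. In genes with 1 transcript, low values were whole multiples of a step per library for 87.2% to 99.0% of values, which placed reads on genes between 16090000 and 24230000.

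From these values log2(normalized count + 1) was fitted with diet and genotype in limma 3.58.1 under R 4.3.3 (empirical Bayes with a trend), over genes with a mean of at least 10, with Benjamini-Hochberg adjustment over the 12366 genes. Dependence on diet was the interaction of genotype and diet, and differences within a diet came from a fit of the 6 groups. Annotation was GENCODE M21 (GRCm38), in which 16222 genes matched. Shared sequence is how much, in percent, of a gene's subsequences of 31 bases recur in another gene. Tables and figures used Python 3.11.15, pandas 2.3.3 and matplotlib 3.10.9.

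Named genes were those of the kinase module, 6 metabolic genes of the study, and, per list, up to 4 members with the largest difference among those called and without overlap. To these were added the 10 largest in each direction among protein-coding genes with under 10% shared sequence, the 3 largest in each direction of any gene, and the 5 with the lowest p for dependence on diet. The members and lists were chosen with earlier results of these data known. Other settings tried were pseudocounts of 0.1 and 10, an unfiltered table and a mean of at least 100, equal 75th percentiles, equal totals, a 6-group fit, the replicate number as a block, genes with little shared sequence, and leaving out each library. Whether same-numbered mice deviate together was checked, and their correlations were -0.0181 fasted, -0.0266 with sucrose and -0.142 with fructose. With 6 libraries per genotype, each value rests on the spread between mice, with unequal depth between libraries as given above.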

Additional observations from a re-analysis of the deposited data

Results flagged for a closer look

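In 238 groups of 6 libraries of 1 genotype, 21 values lay far from the other 5 by Dixon's criterion, which chance alone meets in about 1 group in 20. Controls far from the others were *Cd5l* in sucrose mouse 2 (947, others 1193 to 1341), *Atp6v0e2* in sucrose mouse 2 (0), *Igsf23* in fasted mouse 1 (0), *Gm12191* in fasted mouse 1 (4.42, others 0) and *Rpl34-ps1* in fructose mouse 1 (2.21). Among libraries labelled MED13-LKO, fasted mouse 2 stood apart for *Acot2* (313), *Rps3a1* (916) and *mt-Nd2* (150420). Sucrose mouse 1 did so for *Igf1* (8720), *Med12* (395), *Rpl34* (238), *Rpl34-ps1* (909) and *Slc35f2* (13.6), and sucrose mouse 2 for *Mlxipl* (4789), *Ttr* (88217) and *mt-Nd3* (10489). Fructose mouse 1 did so for *Pgm1* (170.0), *Slc22a26* (821, others 267 to 332) and *Slco1a1* (2581), and fructose mouse 2 for *Cdk19* (65.5) and *P4hb* (23668).

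The genotype difference depended on diet in the interaction test of limma for 6 named genes, and no gene was so called in the blocked fit. Adjusted p-values were 0.00054 for *Ighv1-50*, 0.00213 for *Fam177a*, 0.0049 for *Nnmt*, 0.0123 for *Rprd2*, 0.020 for *Nlrp12* and 0.0246 for *Oat*. For *Oat*, the log2 differences were -1.47 fasted, -0.19 with sucrose and -0.70 with fructose.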

How the results depend on the processing

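Pseudocounts, filters, equal 75th percentiles and the 6-group fit gave between 2603 and 3127 called genes, against 3008. With equal totals 7448 were called, 7071 higher and 377 lower, and 2712 did not overlap, 2583 higher and 129 lower. Over genes with under 10% shared sequence 1027 were called lower. Compared 2 against 2 within each diet, 2237 did not overlap, 1023 higher and 1214 lower. Leaving out each library gave 2467 to 2959 calls (1155 to 1344 higher and 1312 to 1615 lower) and 1174 to 1327 genes without overlap (526 to 579 higher and 644 to 756 lower).

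The 20 genes that depended on diet became 4 with a mean of at least 100, 6 over genes with under 10% shared sequence, and 2 to 55 without 1 library (2 without MED13-LKO sucrose mouse 2, and 55 without control fructose mouse 2). The replicate number as a block left 2393 genes called between genotypes and 0 dependent on diet. With the numbers of the MED13-LKO fructose mice crossed, an alternative chosen after seeing the data, these were 2750 and 2. Same-numbered mice share only a number, as their correlations show. Within a diet the calls with equal totals were 4147 fasted, 2242 with sucrose and 3465 with fructose. Leaving out 1 library gave 382 to 1454 fasted, 149 to 987 with sucrose and 328 to 1056 with fructose; leaving out either mouse of the diet itself lowered each count by over 1.5 times, except control fructose mouse 2, and the lone mouse left is assumed to vary like the others.

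List medians moved with equal totals because all genes shift by 0.315. The sign changed for core Mediator (0.27), the growth hormone axis (0.21), P450 (0.12), phase II (0.21), gluconeogenesis (0.041), glycogen (0.28), apolipoproteins (0.12), bile acids (0.000), amino acids (0.003), NAD (0.27), coagulation (0.076), stellate markers (0.19), ribosomal pseudogenes (0.064) and the mitochondrial genome (0.005). All of these lay below the median of all genes under that scaling, 0.32. The median kept its sign for the kinase module (0.37), cholesterol (-0.16), glycolysis (-0.055), fructose (-0.21), PPAR alpha (0.59), ER chaperones (-0.14), hepatokines (-0.025), splicing (0.37), interferon (0.61), hepatocyte (-0.081), Kupffer (0.52), endothelial (0.53), cholangiocyte (0.50) and lymphocyte markers (0.71), and ribosomal proteins (-0.023). With under 10% shared sequence, the medians were 0.009 for core Mediator and 0.042 for glycogen, both reversed, 0.35 for female-biased genes, -0.48 for glycolysis, -0.23 for bile acids, -0.44 for hepatokines and 0.14 for interferon. Equal 75th percentiles gave -0.028 for core Mediator and -0.021 for NAD. Among named genes *Ebp* (0.13), *Mlxipl* (0.016) and *Tpi1* (0.071) changed sign with equal totals, each below the median of all genes.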

Other observations

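Of 49 lists examined, 16 were not described above, and in these 19.5% to 71.4% of the tested members were called. Periportal genes, which mark hepatocytes near the inflow of blood, had 9 of 14 members called lower and 1 higher (5 and 2 with equal totals), and pericentral genes that depend on Wnt had 9 of 19 lower and 1 higher (6 and 6). Of 77 nuclear genes of oxidative phosphorylation 21 were called lower (27.3%, against 12.8% of all genes) and 2 higher (2.6%, against 11.5%), or 0 and 58 with equal totals, and 1 of the 2, *Cox6b2*, passed the filter only through the libraries where it is high. Autophagy and lysosome genes split into 7 higher and 15 lower of 45 (29 and 3 with equal totals).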
